A study of Mus musculus with 6 samples.

Results

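Retinoic acid is made and removed by a short chain of enzymes. Here 9 genes of that chain were followed in fetal gonads of wild-type and Sox9 mutant mice. They were chosen by name, as enzymes that make or break down retinoic acid or as proteins that carry it in the cell. Each had a single probe set annotated to it alone, so 9 of 9 genes were measured, out of 19937 genes represented on the arrays. They are Aldh1a1, Aldh1a2, Aldh1a3 and Adh1 (synthesis), Dhrs3 (the reverse step), Cyp26a1 and Cyp26b1 (breakdown), and Crabp1 and Crabp2 (binding).

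The tissue was gonads of mouse embryos at E13.5 (embryonic day), dissected away from the mesonephros, on a mixed C57BL6/J and 129 background. The wild-type group had 3 arrays, numbered 1, 2 and 5, each hybridised with RNA pooled from 6 gonads. The other group, called the Sox9 mutant, was Sox9flox/flox; Sf1:creTr/+ and had 3 arrays, numbered 3, 4 and 6, each from a pool of 12 gonads. In these embryos Cre, expressed from regulatory sequence of Sf1 (Nr5a1), a gene of somatic gonadal cells, acts on floxed Sox9, so germ cells are not where the recombinase is meant to act. Pool size went with genotype, and no group had the transgene without floxed alleles or floxed alleles without the transgene, so these cannot be told apart from the loss of Sox9. Litters are not named in the labels, so a p-value here reflects how much these particular pools vary, part of which may be technical.

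Retinol is oxidised to retinaldehyde by retinol and alcohol dehydrogenases, and retinaldehyde is oxidised irreversibly to retinoic acid by the retinaldehyde dehydrogenases of the Aldh1a family. Enzymes of the CYP26 family oxidise retinoic acid further and end its action, and what is left binds nuclear receptors that switch target genes on. In the fetal gonad the balance is thought to matter to germ cells. In the prevailing model retinoic acid acts upstream of Stra8 and entry into meiosis in the ovary. In the testis, CYP26B1 made by somatic cells is held to keep germ cells from retinoic acid. That model was not tested here.

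The DNA element through which retinoic acid receptors act in its best known form is a direct repeat of a hexamer with 5 bases between the copies, called DR5. In windows of 300 bases (250 before to 50 after a transcription start, from RefSeq on GRCm38.p6), a DR5 was searched on both strands with the hexamer AGGTCA or its common variant AGTTCA, and with the forms of each that open with G (GGGTCA for the first, GGTTCA for the second), in any combination. It was present in 0.0974% of 32851 windows of all genes. Of the members, 7 of 9 had a window, and Cyp26a1 was the 1 member with a DR5; Rarb, which encodes a retinoic acid receptor, was the 1 other retinoid gene with one, of 33 with a window. Both elements are shown because these genes are the textbook direct targets of retinoic acid and serve as readouts later on. Capitals mark the hexamers, and 6 flanking bases are given on each side.
Cyp26a1 (chr19:37697770-37697798, minus strand): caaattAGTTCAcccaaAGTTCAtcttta
Rarb (chr14:16575507-16575535, minus strand): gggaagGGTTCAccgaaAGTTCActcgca
The element of Cyp26a1 lay 32 to 16 bases upstream of the start, on the strand opposite to the gene, and that of Rarb 53 to 37 bases upstream, on the strand of the gene.

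The windows of the 2 synthesis genes that fell are shown because Cyp26b1, the breakdown enzyme, fell with them. They were searched on both strands for cores bound by SOX proteins (ACAAT and the longer ACAAAG), for the NR5A1 site CAAGGTCA and for the GATA site AGATAA, which do not overlap in these windows and are in capitals. The 250 bases before the start are printed (GRCm38.p6, plus strand).
Adh1 (chr3:138277335-138277584): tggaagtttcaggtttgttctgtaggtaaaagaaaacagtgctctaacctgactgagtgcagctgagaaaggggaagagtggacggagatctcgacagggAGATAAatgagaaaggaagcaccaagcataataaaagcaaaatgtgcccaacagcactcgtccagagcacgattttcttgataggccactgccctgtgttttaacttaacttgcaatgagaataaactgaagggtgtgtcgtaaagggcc
Aldh1a1 (chr19:20492333-20492582): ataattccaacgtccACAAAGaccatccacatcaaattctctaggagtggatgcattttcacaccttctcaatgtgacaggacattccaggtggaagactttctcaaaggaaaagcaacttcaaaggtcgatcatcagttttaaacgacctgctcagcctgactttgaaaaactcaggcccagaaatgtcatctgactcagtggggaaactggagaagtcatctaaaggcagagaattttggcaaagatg
The Adh1 window held 1 GATA site and the Aldh1a1 window shown 1 SOX core. The Aldh1a1 window shown was taken at the annotated start with the lowest coordinate, and which start the gonad uses was not tested. Another Aldh1a1 window, at an annotated start of higher coordinate, held a GATA site 32 bases before that start. Across all windows ACAAT was found in 31.0%, ACAAAG in 18.7%, AGATAA in 11.2% and CAAGGTCA in 1.56%, so the first 3 are common letters. The windows of Cyp26b1, Aldh1a2 and Crabp1 held none of these 4 and no DR5. A match describes the letters and is not evidence of binding.

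Values are the deposited log2 values, and a difference is the mutant mean minus the wild-type mean. Sox9 measured 8.82, 8.81 and 9.20 log2 in wild type and 7.52, 7.78 and 7.60 in the mutant (limma adjusted p = 0.00124), so the targeted gene was lower in each library labelled as mutant. The median of the 6 arrays ranged from 7.17 to 7.24 log2, and the number of arrays limits the precision. A background mark of 6.67 log2 was taken from the 95th percentile of olfactory and vomeronasal receptor probe sets. Sox9 stayed above it on all 6 arrays, those of the mutant included. The 3 measured Y-linked genes also lay above it on all 6 arrays, so every pool of both groups held gonads with a Y chromosome. Their mean was 8.74 to 8.89 log2 in wild type and 8.53 to 8.99 in the mutant. None of them differed at a limma adjusted p under 0.05. Wild type 5 stood apart: its mean over 11 liver genes was 8.70 log2, against 6.33 to 6.51 on the 5 other arrays, with Afp at 11.26 against 5.64 to 6.33; Fga was the 1 gene of the list that was not highest there. The source of this signal was not tested. The arrays numbered 5 and 6 also lay apart from the rest on the second principal component (23.3% of the variance), and the labels name no batch. Mutant 4 kept more signal of Leydig and Sertoli genes than mutants 3 and 6, and results that move with any of these arrays are given with that array's values.

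Of the 9 members 5 passed the limma test (adjusted p under 0.05), 3 lower and 2 higher in the mutant. That is 55.6% of the members, beside 6.94% of all genes (2.64% higher and 4.3% lower), a comparison that describes genes chosen with earlier results known. The groups did not overlap for 7 of the 9, beside 28.7% of all genes. The median difference of the members was 0.22 and the mean -0.45 log2, so these differ in sign, and the median over all genes was 0.0041. Synthesis did not move as a block: Adh1 and Aldh1a1 fell, Aldh1a2 rose and Aldh1a3 did not pass. Breakdown rested on Cyp26b1, which fell, since Cyp26a1 lay under the background mark on all 6 arrays.

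**Figure D1:**
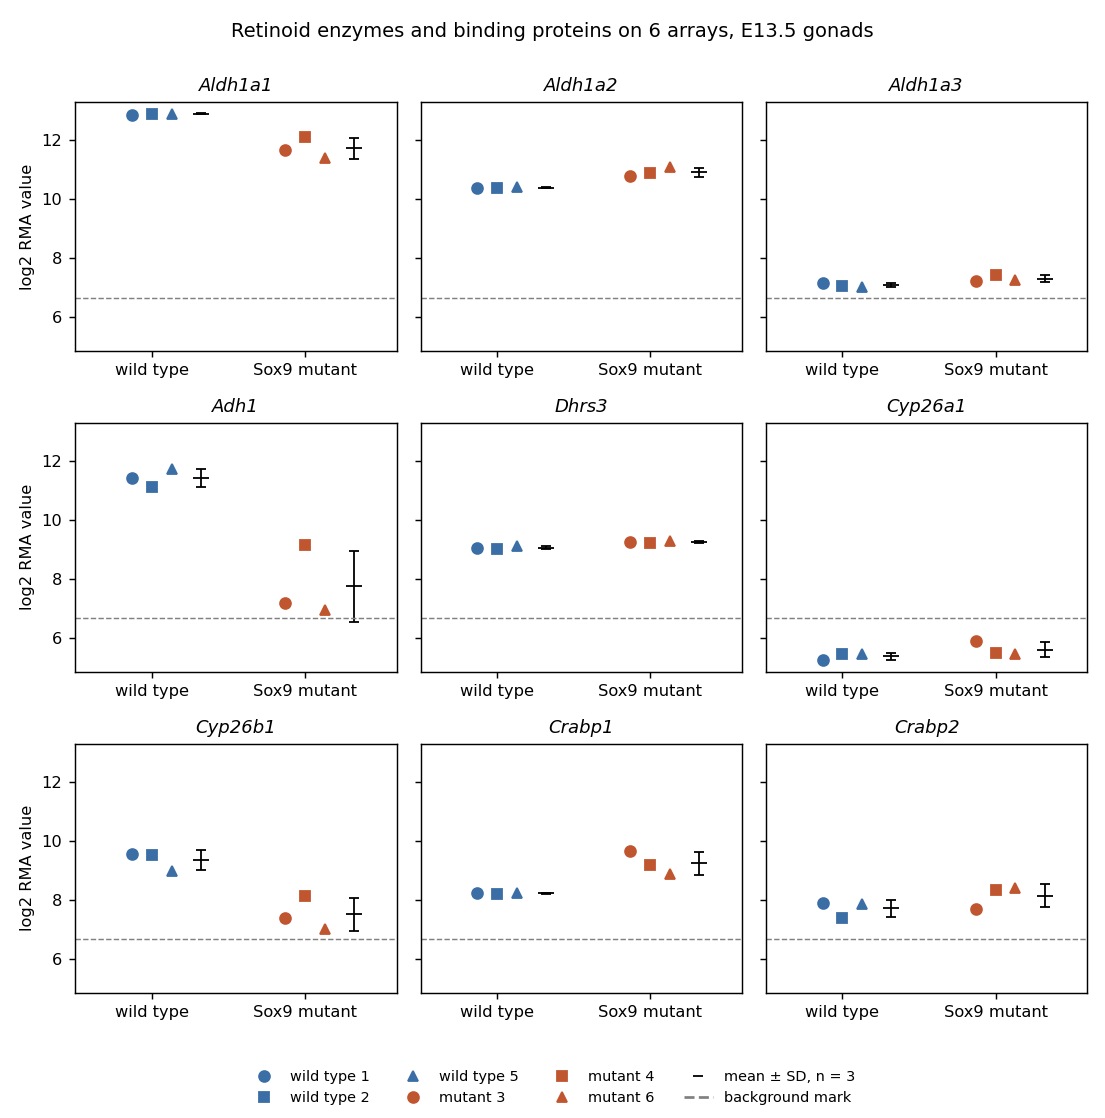
The log2 value of each of the 9 genes on the 3 wild-type (blue) and 3 Sox9 mutant (orange) arrays, with the mean and SD of each group as black bars and the background mark of 6.67 log2 as a dashed line. Adh1, Aldh1a1 and Cyp26b1 are lower on the 3 mutant arrays, with mutant 4 the highest of them for each, Aldh1a2 and Crabp1 are higher, and Cyp26a1 stays under the mark.

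Cyp26b1, the CYP26 enzyme of the fetal testis, gave 9.56, 9.53 and 8.97 log2 in wild type (arrays 1, 2 and 5, in this order throughout) against 7.39, 8.14 and 7.04 in the mutant (arrays 3, 4 and 6). The groups were 0.83 log2 apart at their nearest values, and all 3 mutant values stayed above the background mark. It fell by 1.83 ± 0.27 log2 (SE; 95% interval -2.44 to -1.23; limma adjusted p = 0.00501), a 3.56-fold difference. Between arrays numbered 1 to 4 the difference was -1.78 and between 5 and 6 it was -1.93. Sertoli marker genes fell too, 8 of 12 measured, with Wt1 higher, and their mean level ran from 10.09 to 10.15 in wild type and from 7.970 to 8.996 in the mutant. Leydig markers and 3 of 4 interstitial progenitor markers, given below with Adh1, fell as well. The part of these cell types in the fall of Cyp26b1 was not tested. In RNA of whole gonads, fewer cells of a type and less RNA per cell cannot be told apart.

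Cyp26a1, the CYP26 enzyme induced by retinoic acid itself, measured 5.26, 5.48 and 5.46 log2 in wild type and 5.90, 5.49 and 5.48 in the mutant. Mutant 3 was the highest array and mutants 4 and 6 lay within 0.02 log2 of the highest wild-type value. The difference of 0.22 ± 0.14 log2 did not pass (95% interval -0.10 to 0.55; limma adjusted p = 0.461). With every value under the background mark, a change of this gene at low expression would be understated. Cyp26c1, the remaining CYP26 enzyme, also had both means under the mark (6.43 and 6.53 log2; adjusted p = 0.710).

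Among the synthesis genes Adh1, an alcohol dehydrogenase able to oxidise retinol, changed most. It measured 11.42, 11.13 and 11.73 log2 in wild type and 7.21, 9.14 and 6.95 in the mutant. Mutant 4 stood well above mutants 3 and 6 and still 1.98 log2 under the lowest wild-type value. Adh1 fell by 3.66 ± 0.48 log2 (SE; 95% interval -4.74 to -2.57; limma adjusted p = 0.00299), a 12.6-fold difference. The difference was -4.35 log2 without mutant 4 and -3.50 without wild type 5, the array with high liver genes, where Adh1 was highest of the wild types. All 4 measured Leydig markers fell. Their mean level was 6.45, 8.85 and 6.33 log2 on mutants 3, 4 and 6, against 10.85 to 10.93 in wild type. The Sertoli list above read 7.97, 8.996 and 7.99 on the same arrays. Of 4 interstitial progenitor markers 3 fell, with a list mean of 9.75, 10.16 and 9.965 against 10.61 to 10.68 in wild type. Each of these lists was highest on mutant 4 among the mutants. Whether Adh1 fell in any of these cells or in others was not tested.

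Aldh1a1, a retinaldehyde dehydrogenase, measured 12.86, 12.90 and 12.89 log2 in wild type, the tightest group of any member. Mutant arrays 3, 4 and 6 read 11.68, 12.09 and 11.38, again with mutant 4 the highest. It fell by 1.17 ± 0.17 log2 (95% interval -1.55 to -0.79; limma adjusted p = 0.00472), a 2.25-fold difference. Between numbers 1 to 4 the difference was -0.997 and between 5 and 6 it was -1.51.

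Aldh1a2, the retinaldehyde dehydrogenase that makes most retinoic acid in the embryo and is strong in the mesonephros, went the other way. Its wild-type values were 10.37, 10.37 and 10.41 log2 and its mutant values 10.78, 10.88 and 11.07. It rose by 0.52 ± 0.12 log2 (95% interval 0.26 to 0.79; limma adjusted p = 0.0328), a 1.44-fold difference with the nearest values 0.37 apart. This call was lost when any 1 of the 6 arrays was left out, with adjusted p from 0.0526 to 0.121. Of 6 mesonephric genes Gata3 was higher and Lhx1 lower, and the mean of the list was 6.98 to 7.08 log2 in wild type and 7.12 to 7.28 in the mutant. Of 5 coelomic epithelium genes Krt8 and Krt18 were higher and 3 did not pass, with a list mean of 8.15 to 8.36 in wild type and 8.63 to 8.90 in the mutant. All 7 markers of pregranulosa cells, the ovarian counterpart of Sertoli cells, were higher, with a mean of 7.28 to 7.40 in wild type and 9.096 to 9.31 in the mutant. The part of these cells in the rise of Aldh1a2 was not tested.

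Aldh1a3, the third enzyme of the family, lay close to the background mark at 7.17, 7.06 and 7.04 log2 in wild type and 7.22, 7.44 and 7.27 in the mutant. The groups were 0.05 log2 apart, and the difference of 0.22 ± 0.11 did not pass (95% interval -0.03 to 0.48; limma adjusted p = 0.336). Dhrs3, which turns retinaldehyde back into retinol and so withholds substrate, read 9.05, 9.03 and 9.12 in wild type and 9.27, 9.22 and 9.30 in the mutant. Its difference of 0.20 ± 0.10 log2 also did not pass (95% interval -0.04 to 0.43; adjusted p = 0.357), although the groups did not overlap.

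The 2 cellular retinoic acid binding proteins were both highest on mutant arrays, and 1 passed. Crabp1, which holds retinoic acid in the cytoplasm and presents it to CYP26 enzymes, measured 8.24, 8.21 and 8.24 log2 in wild type and 9.66, 9.20 and 8.89 in the mutant. It rose by 1.02 ± 0.18 log2 (95% interval 0.62 to 1.42; limma adjusted p = 0.0118), a 2.03-fold difference. Without wild type 1 it did not pass (adjusted p = 0.0565). Of 6 germ cell markers Dppa3 and Dnd1 fell, with differences of -1.55 and -0.83 log2, and 4 did not pass: Pou5f1 (-0.58), Ddx4 (0.18), Dazl (0.31) and Mael (0.69). Their mean level was 10.03 to 10.39 in wild type and 9.73 to 10.04 in the mutant. All 7 pregranulosa markers were higher, as were 2 of 5 coelomic epithelium markers, given above with Aldh1a2. The part of any of these cell types in the rise of Crabp1 was not tested. Crabp2, which delivers retinoic acid to the receptors, measured 7.90, 7.39 and 7.88 in wild type and 7.71, 8.35 and 8.40 in the mutant. Mutant 3, where Crabp1 was highest, was the mutant array lowest for Crabp2 and lay inside the wild-type range. The Crabp2 difference of 0.43 ± 0.21 log2 did not pass (95% interval -0.05 to 0.90; adjusted p = 0.317). It was 0.26 without wild type 2 and 0.65 without mutant 3 (adjusted p = 0.591 and 0.116).

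Synthesis was then set against breakdown array by array. Levels of different probe sets are not on 1 scale, so each gene was expressed as its deviation from its own wild-type mean. The mean deviation of the 4 synthesis genes was -1.22, -0.56 and -1.27 log2 on mutants 3, 4 and 6, and that of the 2 breakdown genes -0.73, -0.56 and -1.12. On the wild-type arrays the same means ran from -0.08 to 0.07 and from -0.16 to 0.13. Synthesis minus breakdown was -0.22 ± 0.25 log2 over the mutant arrays (SD, n = 3) and 0 ± 0.22 over wild type, so this summary did not separate the groups. No test was made on it, since its genes were chosen.

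That mean hid opposite movements, and its sign depended on which genes stood for each side. Without Adh1 the difference was 0.66 log2, and with Cyp26b1 as the sole breakdown gene it was 0.81. Relative to Cyp26b1, Aldh1a2 stood higher than its wild-type relation by 2.36, 1.71 and 3.00 log2 on mutants 3, 4 and 6, and Aldh1a3 by 2.10, 1.57 and 2.501. Aldh1a1, which itself fell, stood higher by 0.76, 0.42 and 0.81, beside -0.22, -0.16 and 0.39 on the wild-type arrays, so mutant 4 exceeded wild type 5 by little. Adh1 fell further than Cyp26b1, by -2.25, -1.07 and -2.16 log2 on the same mutant arrays. On every mutant array, then, Adh1 lay below Cyp26b1 and the 3 Aldh1a enzymes lay above it, each relative to its wild-type mean. Cyp26b1 itself deviated by -1.96, -1.21 and -2.31 log2 on these arrays, so a gene that did not change also lies above it. Aldh1a3 itself deviated by only 0.13, 0.35 and 0.19. In this summary Adh1 was the only gene standing for the first oxidation step. None of 12 other enzymes listed for that step passed in the limma fit, and 5 of them had both means under the background mark.

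**Figure D2:**
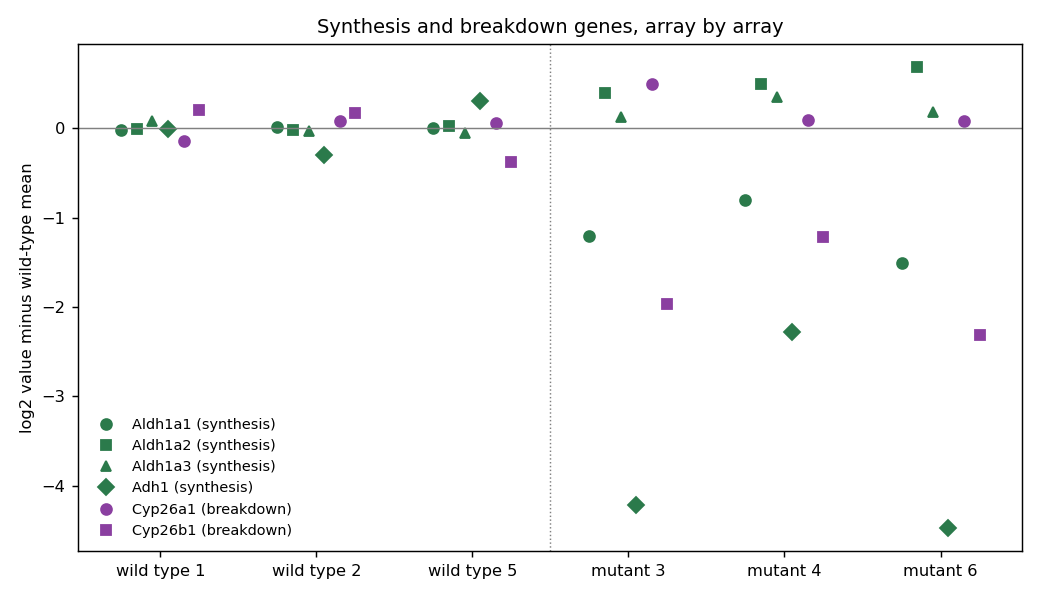
Deviation of each synthesis gene (green) and breakdown gene (purple) from its wild-type mean, in log2, on each of the 6 arrays. On the 3 mutant arrays Aldh1a2 and Aldh1a3 lie above 0, Aldh1a1 and Cyp26b1 below it and Adh1 lowest, at -4.22, -2.28 and -4.47 on mutants 3, 4 and 6.

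The rest of the pathway, a list of 45 genes of which 40 were measured by a probe set of their own, was read in the same fit. In it 2 genes were higher, 2 were lower and 36 did not pass, 10% called beside 6.94% of all genes, with a median difference of -0.01 log2. Both means of 12 of the 40 lay under the background mark. For the counts that follow, an unadjusted p under 0.05 was reached by 21.7% of all genes. None of 7 genes of retinol transport and storage passed in the limma fit, with 3 at that level. Those with the highest means were Dgat1, which esterifies retinol among other substrates, at 8.64 and 8.68 log2, and Stra6, the receptor that takes up retinol from its plasma carrier, at 7.95 and 8.26 (adjusted p = 0.147). Named after its values were seen, Rbp4, that carrier and 1 of the 11 liver genes above, measured 7.81, 7.47 and 9.14 in wild type and 7.28, 7.19 and 6.68 in the mutant (adjusted p = 0.142). Its highest value was on wild type 5, the array with high liver genes.

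None of the 12 enzymes listed for the step from retinol or carotene to retinaldehyde passed either, with 3 (25%) at an unadjusted p under 0.05, a share near that of all genes (21.7%). Rdh10, the main retinol dehydrogenase of the embryo, measured 9.19, 9.13 and 8.88 log2 in wild type and 9.28, 9.35 and 9.45 in the mutant. Its groups did not overlap, and the difference of 0.29 ± 0.12 did not pass (95% interval 0.01 to 0.57; limma adjusted p = 0.235). Adh5, the widely expressed class III alcohol dehydrogenase, differed by -0.58 ± 0.18 log2 (adjusted p = 0.112), against the fall of 3.66 in Adh1. Adh5 passed with numbers 5 and 6 as a batch term (adjusted p = 0.0262) and without mutant 6 (0.0482). Of the other alcohol dehydrogenases Adh4 and Adh7 had both means under the mark. Among other oxidising enzymes Cyp1b1, a cytochrome that can also act on retinol, differed by -0.47 log2 (adjusted p = 0.0728), and passed in the 2 fits restricted to brighter probe sets (adjusted p = 0.0399 and 0.0348) and with eBayes with trend and robust (0.0444). Fabp5, a fatty acid binding protein that also carries retinoic acid, fell by 0.82 ± 0.17 log2 (adjusted p = 0.0243), a call lost without wild type 1, wild type 5, mutant 3 or mutant 6 (adjusted p up to 0.0924).

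**Figure D3:**
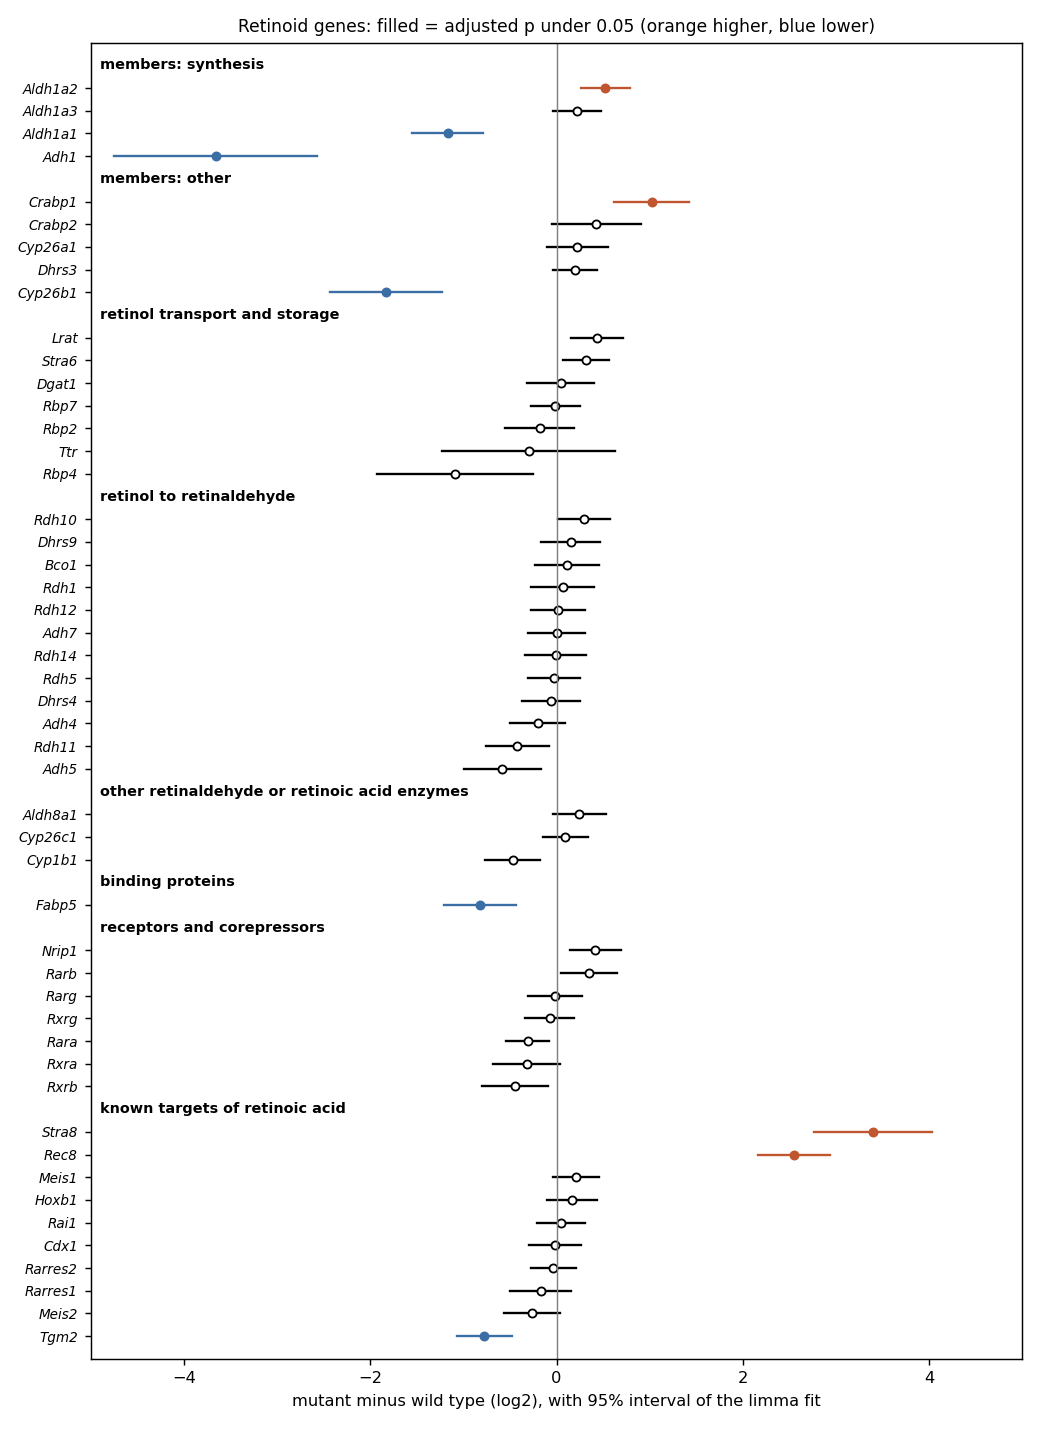
Mutant minus wild type in log2 for the 9 members and 40 other retinoid genes, grouped by role, with the 95% interval of the limma fit as a line. Filled points passed an adjusted p of 0.05: Adh1, Cyp26b1, Aldh1a1, Fabp5 and Tgm2 lower, and Aldh1a2, Crabp1, Stra8 and Rec8 higher.

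No receptor or corepressor of 7 passed in the limma fit, with 4 at an unadjusted p under 0.05 (21.7% of all genes). The 2 with the highest means were Nrip1, a corepressor that is itself induced by retinoic acid, with a difference of 0.42 ± 0.12 log2 (adjusted p = 0.0865, and 0.0467 and 0.0403 in the fits of brighter probe sets), and Rxrb, a partner of the retinoic acid receptors, with -0.44 ± 0.16 (adjusted p = 0.154). Rarb, whose DR5 is printed above, measured 6.80, 6.49 and 6.91 log2 in wild type and 7.15, 7.03 and 7.06 in the mutant. Each mutant value exceeded each wild-type value, close to the background mark, and the difference of 0.34 ± 0.13 did not pass (95% interval 0.04 to 0.65; limma adjusted p = 0.195). Both retinoid genes with a DR5 thus had higher means in the mutant, and neither difference passed. Every Cyp26a1 value lay under the background mark. Over all 11 measured genes with a DR5, listed by sequence alone, the median difference was -0.06 log2. A sequence match is not evidence of a response to retinoic acid, so this median is no measure of such a response.

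The 10 measured genes listed as known targets of retinoic acid did not move together. Stra8, the gatekeeper of meiosis in germ cells, measured 5.50, 4.76 and 4.96 log2 in wild type, under the background mark, and 9.05, 8.42 and 7.92 in the mutant, a rise of 3.39 ± 0.28 (limma adjusted p = 0.000369). Rec8, a meiotic cohesin of germ cells, read 7.35, 6.90 and 7.11 in wild type and 9.97, 9.63 and 9.41 in the mutant, a rise of 2.55 ± 0.17 (adjusted p = 0.000227). For both, mutant 3 was highest and mutant 6 lowest, which is also the order of Crabp1 on these arrays. Tgm2, a transglutaminase of many tissues, read 10.10, 9.98 and 10.07 in wild type and 9.14, 9.52 and 9.17 in the mutant. Tgm2 fell by 0.77 ± 0.13 log2 (adjusted p = 0.0102), a call lost without wild type 1 (adjusted p = 0.0557). The 7 other measured genes of this list did not pass, with differences from -0.27 (Meis2) to 0.21 log2 (Meis1). The list of 10 thus had 2 higher and 1 lower, 30% called beside 6.94% of all genes, and a median difference of 0.02 log2. Cyp26a1, Rarb and Nrip1, described above as targets of retinoic acid, were filed under other roles and are not in this list. Their differences were 0.22, 0.34 and 0.42 log2, and none passed in the main limma fit. The counts and the median therefore hold for this list alone.

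**Figure D4:**
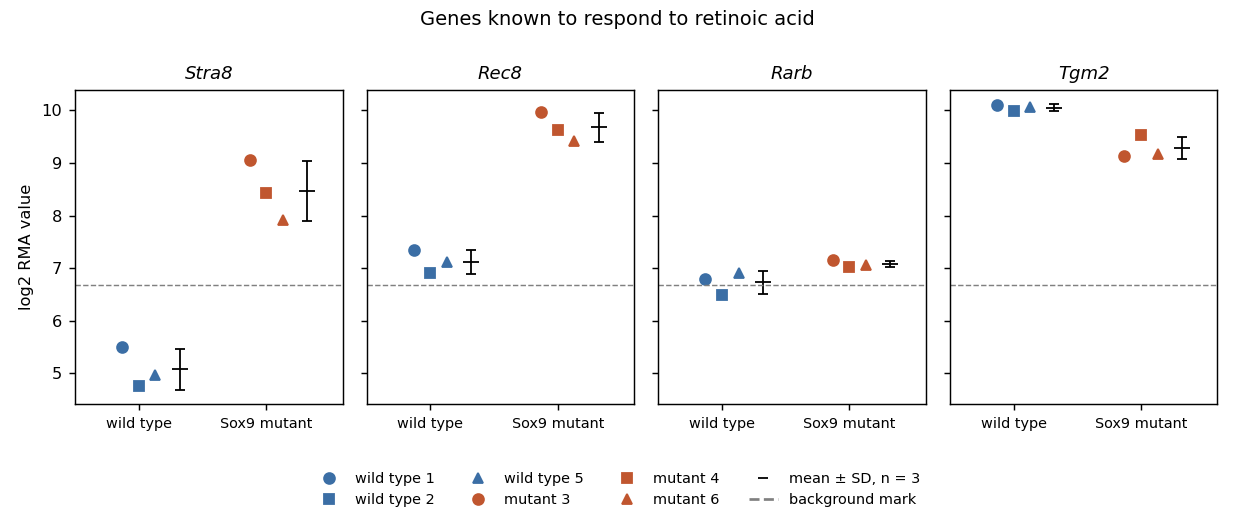
Log2 values of 4 genes known to respond to retinoic acid on the 6 arrays, drawn as in the plot of the 9 genes. Stra8 and Rec8 are higher on the 3 mutant arrays, Rarb lies just above the highest wild-type value on each of them, and Tgm2 is lower.

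For each member that passed, the 3 genes outside the list with the most similar values were sought by Pearson correlation over the 6 arrays. These points share their genotype in threes, so any gene with a clear difference scores high and the correlations describe these arrays alone. Cyp26b1 was matched best by Adamts5, a matrix protease (r = 0.999), then Wdr18 and Afap1l2. Adh1 was matched by Slc6a15, an amino acid transporter, Plin1, a lipid droplet protein, and Cst9, a marker of Sertoli cells (r = 0.999 to 0.998). Aldh1a1 was matched by Fads1, a fatty acid desaturase, Nck2 and Prss35. Aldh1a2 was matched by Rhox9, a homeobox gene (r = 0.997; higher by 1.81 log2), Zfp462 and Pld1. Crabp1 was matched by M1ap, a meiosis gene (r = 0.999; 6.91, 6.72 and 6.74 log2 in wild type and 10.76, 9.41 and 8.55 in the mutant), Vmn1r74 and Pbx3. Of these 15 genes Wdr18, Nck2 and Vmn1r74 did not pass the limma test themselves.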

How the data were processed

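RNA of 6 gonad pools was measured on Affymetrix arrays, 300 ng of total RNA each per the labels' protocols. The deposited values are log2 values from RMA, per the submitters' processing notes, with version and settings not given in the sources used here. RMA equalises the distributions of arrays and compresses differences near background. Of 34760 rows, 6573 with identifiers below the lowest annotated one were left out as controls (18.9%). Among the 28187 tested probe sets 21640 had 1 gene in the annotation table, 1321 had several and 5226 had none; 21553 were found in the GRCm38.p6 gene table through their Entrez identifiers, with 0 changes of symbol. The brightest probe set over the 6 arrays stood for each gene.

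Groups were compared with limma 3.58.1 (lmFit, eBayes, 2-sided) in R 4.3.3, with Benjamini-Hochberg adjustment over all tested probe sets; the script was first tested on simulated data. Errors beside differences are standard errors. The members, lists and tests were chosen with earlier results of these data known. Named outside the members were Sox9, other retinoid genes that passed or, for a role with none, the 2 with the highest mean, and the 3 best correlated genes per called member; Rarb, Rbp4, Ttr, Adh4, Adh7, Meis1 and Meis2 were named after their values were seen. Other settings covered normalization, dim probe sets, variance moderation, array weights, arrays left out, threshold and gene summary. Figures used matplotlib 3.10.9.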

Additional observations from a re-analysis of the deposited data

How the results depend on the processing

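Each difference was recomputed under up to 16 other settings, fewer where a filter removed the gene. Adh1 (-4.35 to -3.10 log2), Cyp26b1 (-2.14 to -1.59) and Aldh1a1 (-1.35 to -0.997) passed under all 16, with adjusted p up to 0.0380, 0.0349 and 0.0297. Aldh1a2 lost its call under 8: numbers 1 to 4 alone (0.46, adjusted p = 0.104), a threshold of 0.01 (0.52) and each array left out (0.44 to 0.59). Crabp1 lost it at the threshold of 0.01 (1.02) and without wild type 1; with single arrays left out it ran from 0.82 to 1.199. The count of members called higher was 1 among numbers 1 to 4, 0 at 0.01 and 0 to 1 with single arrays left out. Over all genes, 527 were called higher in the main fit and 382 among numbers 1 to 4. That count was 199 at 0.01 and 262 to 546 with single arrays left out. Genes called lower were 857, 513, 328 and 330 to 746 in the same order. Other retinoid genes called lower were 0 among numbers 1 to 4 and at 0.01, 0 to 2 with single arrays left out, and 3 when dim probe sets were removed by either rule, with trend and robust or with numbers 5 and 6 as a batch term; 3 were higher above the background mark. Cyp1b1, Adh5 and Nrip1 gained these calls. For retinoic acid targets the lower count was 0, 0 and 0 to 1. The higher count was 1 among the brighter probe sets, where the filter removed Stra8. Stra8 passed under each of its 15 other settings and Rec8 under each of its 16. Adh1 with Cyp26b1 carried the summary of synthesis and breakdown. With dim probe sets removed by the background mark, or with Cyp26b1 alone, breakdown was -1.83 and the difference 0.81 log2; among the brighter probe sets (those over the median), where Aldh1a3 is lost too, synthesis was -1.43, breakdown -1.83 and the difference 0.40; without Adh1 synthesis was -0.14 and the difference 0.66. With single arrays left out Dgat1 ran from -0.10 (without mutant 3) to 0.18, with -0.04 without wild type 5, and Ttr from -0.65 to 0.30 (without wild type 5), with 0.27 among numbers 1 to 4; neither passed. For the 15 other retinoid genes, 215 recomputed values kept direction and call, 9 lost a call and 7 gained one. No paired analysis was possible because the groups share no replicate number.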

Other observations

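A DR5 was present in the windows of 31 genes, of which 11 were measured by a probe set of their own. Of these 11, 1 was called (9.09%, beside 6.94% of all genes): Prokr2, a prokineticin receptor, was lower in the mutant, with means of 8.27 log2 (wild type) and 6.67 (mutant) (limma adjusted p = 0.00343). The median difference over the 11 was -0.06 log2, and Cyp26a1 and Rarb were 2 of them. Among the others Hbb-y, an embryonic globin, differed by -0.33 log2 and Blvrb, a reductase abundant in red cells, by -0.40, and neither passed (adjusted p = 0.405 and 0.282). These genes were listed by their sequence, and the values were seen before they were named.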
